A study of Mus musculus with 48 samples.

Results

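Csf2, Il3, Havcr2 and Utf1 lead a group of 26 genes whose mean level in primary mouse CD4+ T cells took a late step at the highest anti-CD3 dose of a dose series. The genes were chosen from 10219 genes by 4 conditions on libraries without PD-1 engagement. The mean level at 10000 ng/ml of anti-CD3 was at least 5 RPM, that is, CAGE tags scaled to the library's total. It was at least 2 times the base, the mean of the libraries at 0 and 10 ng/ml, after 1 RPM was added to both. The mean at 1000 ng/ml had reached at most 65% of the rise from base to 10000 ng/ml, called the share at 1000 ng/ml below. Ifng, Il4 and Crabp2 were set aside by name, and 0 of these 3 met the condition on the share. The 26 genes made up 2.79% of the 931 genes that met both the level and the fold condition at 10000 ng/ml, and the other 905 are called the other induced genes.

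T cells read the strength of a stimulus through the T cell receptor and its CD3 chains, and cytokine genes are switched on through the transcription factors NFAT, AP-1 and NF-kB. PD-1 is an inhibitory receptor of activated T cells that, once bound by its ligands, dampens signalling from the T cell receptor and CD28. Csf2 encodes GM-CSF and Il3 encodes interleukin-3, growth factors for myeloid cells that activated helper T cells secrete. Their genes lie next to each other. Havcr2 encodes TIM-3, an inhibitory receptor of activated T cells.

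CAGE (cap analysis of gene expression), which counts transcript 5′ ends, had been run on 48 libraries. Of these, 22 came from primary CD4+ T cells of BALB/cCrSlc mice given 2C11, an antibody to mouse CD3, at 0, 10, 100, 1000 or 10000 ng/ml, with PD-1 engaged or unengaged. Each of these 10 groups had 2 libraries, or 3 at 10000 ng/ml. The other 26 came from DO11.10, a T cell hybridoma of BALB/c and AKR/J origin that responds to an ovalbumin peptide (pOVA), given at 0, 1, 10, 100, 1000 or 10000 nM with PD-1 engaged or unengaged, again with 2 libraries a group, or 3 at 10000 nM. The labels say neither how PD-1 was engaged, nor how long the cells were stimulated, nor whether replicates were separate cultures or animals, so p-values measure the spread between these libraries, which may be technical. Cultures were measured in bulk, so fewer cells making a transcript and less transcript per cell cannot be told apart.

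The CD4+ libraries held 4.42 to 22.8 M tags and the hybridoma libraries 7.79 to 19.7 M. One tag was worth at most 0.226 RPM in the CD4+ libraries, and a count of 0 in that library allows a level of up to 0.678 RPM, counting error alone. All 13 T cell markers of a control list were measured, with a sum of 4268 to 6501 RPM over the 22 CD4+ libraries. A control list of B cells and other antigen-presenting cells was also detected, with 14 of 18 genes measured and a sum of 557 to 1272 RPM. Of the myeloid markers 2 of 15 were measured, and of the NK and CD8 markers 3 of 11.

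The name of the group, genes needing the highest dose, overstates the pattern. The 14 genes described next had already reached a median of 58.7% of their rise at 1000 ng/ml. The libraries described here also chose the genes, so their separation does not test the name. In 14 genes, all 3 unengaged libraries at 10000 ng/ml lay above every unengaged library at 0, 10 and 1000 ng/ml. These were Csf2, Il3, Havcr2, Utf1, Tnfrsf12a, Nop10, Plek, Gm2000, Crip2, Gm561, Med29, Rpl28-ps1, Cdc42ep3 and Timm8b, and 12 of the 14 are protein coding. In the other 12 genes the libraries overlapped, and in several a single library carried the mean. Hist1h2ap, a histone H2A gene, measured 2.65, 2436 and 2.40 RPM in the 3 unengaged libraries at 10000 ng/ml, and also 784 RPM in 1 unengaged library at 10 ng/ml. Gm11353, a pseudogene, measured 0.597, 47.7 and 0.300 RPM at 10000 ng/ml. Gm14934 reached 2761 RPM in 1 unengaged library at 10000 ng/ml, and 2580 RPM in 1 engaged library at 100 ng/ml. Such isolated values thus also appeared at lower doses and with PD-1 engaged.

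**Figure D1:**
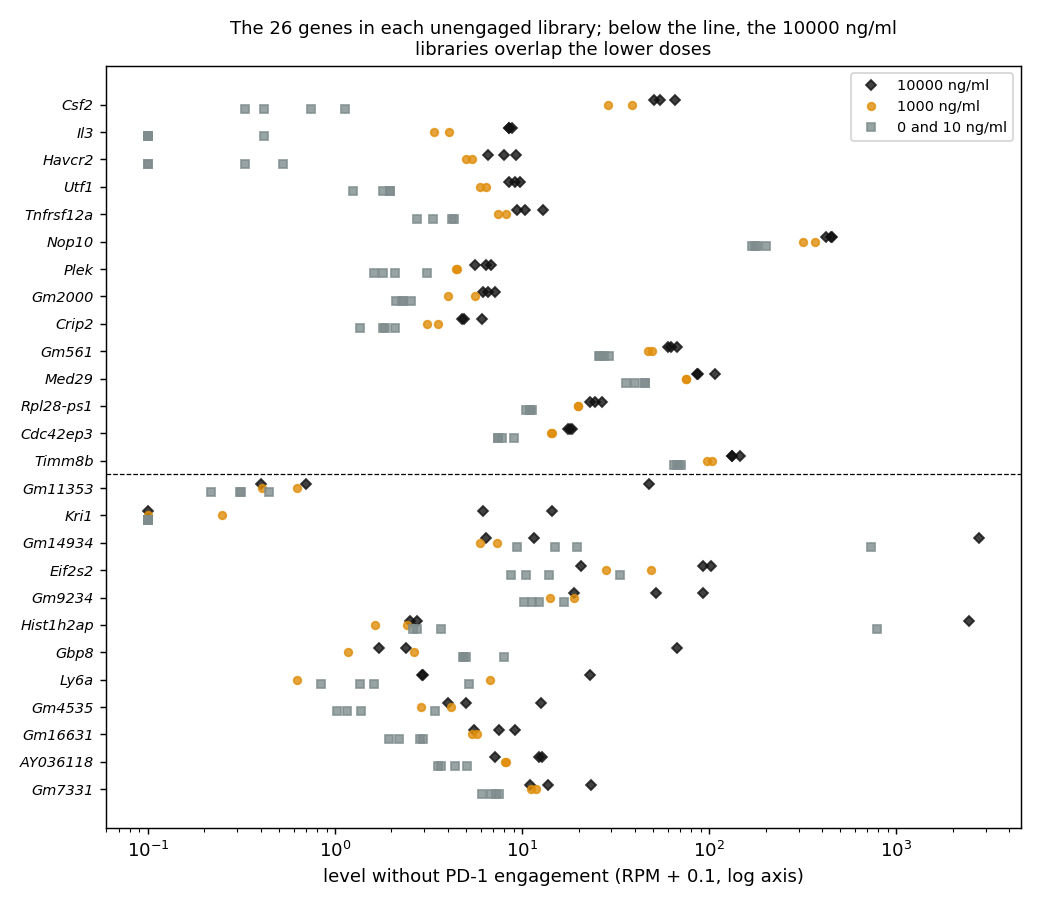
Each row is 1 of the 26 genes and each point 1 library without PD-1 engagement, in RPM plus 0.1 on a log axis; diamonds are 10000 ng/ml, circles 1000 ng/ml, and squares 0 and 10 ng/ml. Above the dashed line the diamonds of 14 genes lie to the right of all other points, while below it, as for Hist1h2ap at 2436 RPM, the doses overlap.

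Of the 26 genes, 17 are protein coding in RefSeq, 6 are pseudogenes, 1 is a long noncoding RNA and 2 have no entry under their symbol. Reads of a pseudogene such as Gm2000 or Rpl28-ps1 can belong to a near-identical parent gene, so these levels are uncertain. The unengaged libraries at 0, 10, 1000 and 10000 ng/ml chose the genes, so their dose response there is a description. Just inside the threshold on the share lay Cdc42ep3, Nop10, Havcr2, Med29 and Rpl28-ps1, with 62.7% to 64.9%. Just outside lay Mcoln2, Gch1, Slc25a37, Gm11847 and Ccl4, with 65.2% to 66.6%. When genes were chosen by the same conditions from the first-numbered libraries alone, 79 genes qualified. Their median share was 54.6% in the libraries that chose them and 84.0% in the remaining libraries, where 8 of the 79 met the conditions again. Of the 26 genes, 7 met the conditions whichever 1 unengaged library was left out.

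Csf2 had the largest fold of the 26 genes over base without PD-1 engagement, 37.1 after 1 RPM was added. Its single tag cluster is 1 base wide, at chr11:54063145-54063145 on the minus strand in mm9, the build of the files. Csf2 measured 18.0, 16.3 and 14.2 RPM with PD-1 engaged at 10000 ng/ml, against 54.3, 65.4 and 50.8 RPM unengaged. Its levels at 1000 ng/ml were 8.45 and 10.9 RPM engaged and 28.7 and 38.5 RPM unengaged. The highest engaged library at 10000 ng/ml therefore stayed below the lowest unengaged library at the dose 10 times lower. At 100 ng/ml it measured 0.904 and 1.72 RPM engaged, against 3.14 and 4.38 RPM unengaged. At 0 and 10 ng/ml its 8 libraries lay between 0.191 and 1.03 RPM. The loss of its rise was 74.7% at 100, 72.2% at 1000 and 72.2% at 10000 ng/ml, and at 100 ng/ml it lay between 62.0% and 87.4% when 1 library was left out. This loss, called inhibition below, is the share of the unengaged rise over base that was missing in the engaged libraries over their own base.

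Il3 stayed at or near 0 up to 100 ng/ml. Its cluster is 2 bases wide at chr11:54080781-54080782 in mm9, on the minus strand. Il3 measured 1.05, 0.739 and 1.00 RPM engaged at 10000 ng/ml, against 8.36, 8.68 and 8.41 RPM unengaged. At the next lower dose, 1000 ng/ml, it measured 0.574 and 0.589 RPM engaged, and 3.96 and 3.29 RPM unengaged. At 100 ng/ml and below, no library of either state exceeded 0.318 RPM, within the limit that a count of 0 allows in the shallowest library. Its inhibition was 83.6% at 1000 and 88.9% at 10000 ng/ml, the highest of the 14 genes with separated libraries at both doses.

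Havcr2 measured 3.15, 3.38 and 2.85 RPM engaged at 10000 ng/ml, against 7.93, 6.45 and 9.16 RPM unengaged. Its levels were 1.81 and 2.21 RPM engaged and 4.94 and 5.29 RPM unengaged at 1000 ng/ml, and at 100 ng/ml 0.226 and 0.095 RPM engaged and 1.42 and 1.20 RPM unengaged. The engaged and unengaged libraries did not overlap at any of these doses. Its inhibition was 60.2% at 1000 and 59.8% at 10000 ng/ml. Utf1, which encodes a chromatin-associated factor known from pluripotent stem cells, measured 4.29, 2.01 and 3.35 RPM engaged at 10000 ng/ml, against 8.36, 9.03 and 9.61 RPM unengaged. At 100 ng/ml it measured 0.678 and 0.955 RPM engaged, below all its engaged libraries at 0 and 10 ng/ml, against 2.94 and 2.75 RPM unengaged. Its levels at 1000 ng/ml were 3.04 and 2.95 RPM engaged and 5.83 and 6.28 RPM unengaged. Its inhibition was 63.0% at 1000 and 74.8% at 10000 ng/ml.

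The promoters of these 4 genes and, for contrast, of Nop10 are shown because the factors that T cell receptor signalling activates bind such windows. They are the 250 bases before the RefSeq start in GRCm38.p6, 5′ to 3′ on the gene's strand, in lower case. Capitals mark matches on either strand to the NFAT core GGAAA, the AP-1 site TGANTCA or the NF-kB consensus (GGG, 2 free bases, then the NFAT core reversed), or on the gene's strand to TATAAA. The windows are Csf2 at chr11:54249900-54250149 (minus), Il3 at chr11:54267280-54267529 (minus), Havcr2 at chr11:46454681-46454930 (plus), Utf1 at chr7:139943606-139943855 (plus) and Nop10 at chr2:112261676-112261925 (plus), in GRCm38.p6.
Csf2: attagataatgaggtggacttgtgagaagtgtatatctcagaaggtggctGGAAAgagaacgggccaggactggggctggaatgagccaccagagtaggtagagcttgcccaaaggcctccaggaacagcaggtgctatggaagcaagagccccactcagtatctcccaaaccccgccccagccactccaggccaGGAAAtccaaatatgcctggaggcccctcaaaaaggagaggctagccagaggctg
Il3: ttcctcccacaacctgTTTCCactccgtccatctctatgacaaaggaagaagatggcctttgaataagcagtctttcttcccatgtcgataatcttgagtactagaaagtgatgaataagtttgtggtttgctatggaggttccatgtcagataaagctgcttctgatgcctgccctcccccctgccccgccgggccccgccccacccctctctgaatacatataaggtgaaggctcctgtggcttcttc
Havcr2: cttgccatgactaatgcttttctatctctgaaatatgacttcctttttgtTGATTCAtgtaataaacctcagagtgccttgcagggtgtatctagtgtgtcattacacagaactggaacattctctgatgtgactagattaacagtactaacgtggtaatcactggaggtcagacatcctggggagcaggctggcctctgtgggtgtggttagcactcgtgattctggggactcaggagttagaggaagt
Utf1: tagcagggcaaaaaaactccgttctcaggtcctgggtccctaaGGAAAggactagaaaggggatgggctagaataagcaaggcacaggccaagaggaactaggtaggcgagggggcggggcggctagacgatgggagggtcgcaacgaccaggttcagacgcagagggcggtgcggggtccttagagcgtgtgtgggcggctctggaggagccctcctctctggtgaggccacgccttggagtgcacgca
Nop10: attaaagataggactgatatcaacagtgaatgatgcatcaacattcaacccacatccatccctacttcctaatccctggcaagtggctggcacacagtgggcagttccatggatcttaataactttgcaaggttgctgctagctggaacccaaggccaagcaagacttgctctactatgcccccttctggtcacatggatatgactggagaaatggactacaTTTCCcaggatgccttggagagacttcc

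In the Csf2 window the NFAT core began 200 and 55 bases before the RefSeq start, in Il3 234 bases, in Utf1 207 bases and in Nop10 28 bases before it. The counted clusters are in mm9 and no coordinates were converted. Whether each window lies directly before the counted cluster was therefore not checked. The counted clusters of Csf2 and Il3 lie further apart in mm9 than their RefSeq starts do in GRCm38.p6. Unless the builds differ between these genes, their windows cannot both lie directly before the counted clusters. Matches near a counted start can therefore be missing from these windows. Havcr2 held no NFAT core and 1 AP-1 match, 200 bases before its start. The promoter table matched 14 of the 26 symbols, with 15 windows. On both strands, the NFAT core was in 10 of the 15 windows (66.7%) and in 55.6% of 32851 mouse promoters of the same length. The AP-1 letters were in 1 of 15 windows, against 6.75% of all promoters, and the NF-kB letters, which contain the NFAT core on the other strand, in 0 of 15, against 1.41%. TATAAA between 40 and 16 bases before the start, on the gene's strand, was in 0 of 15 windows and in 1.99% of all. The GC box GGGCGG was in 10 of 15 windows, against 32.7%. Matches of these letters are descriptions of the windows.

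Nop10, a subunit of the H/ACA ribonucleoprotein that guides pseudouridylation of ribosomal RNA, measured 385, 407 and 375 RPM engaged at 10000 ng/ml, against 453, 418 and 446 RPM unengaged. At 1000 ng/ml it measured 421 and 431 RPM engaged and 316 and 369 RPM unengaged. Timm8b, a chaperone of protein import into mitochondria, measured 124, 107 and 105 RPM engaged at 10000 ng/ml and 133, 132 and 147 RPM unengaged. It measured 131 and 144 RPM engaged at 1000 ng/ml, against 96.5 and 104 RPM unengaged. The choice of genes favoured low unengaged libraries at 1000 ng/ml, and its part in these differences was not tested. The higher engaged level there did not pass where the genes were tested without the libraries that chose them (limma adjusted p = 0.23 for Nop10 and 0.098 for Timm8b). Inhibition of Nop10 was 39.1%, −31.2% and 32.2% at 100, 1000 and 10000 ng/ml, and of Timm8b −16.9%, −112% and 37.9%. A negative value means a larger rise with PD-1 engaged.

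Med29, a subunit of the Mediator complex, measured 81.9, 78.5 and 64.8 RPM engaged at 10000 ng/ml, against 87.3, 107 and 85.9 RPM unengaged. Its 4 libraries at 1000 ng/ml lay between 74.4 and 75.6 RPM in both states. Inhibition at 1000 ng/ml was −14.9% for Med29, −39.6% for Gm561 (Smim26 in RefSeq) and −30.7% for Rpl28-ps1, and at 10000 ng/ml it was 25.9% for Med29, 17.3% for Gm561 and 17.5% for Rpl28-ps1. Tnfrsf12a, the receptor for the cytokine TWEAK, measured 9.44, 7.18 and 8.38 RPM engaged at 10000 ng/ml and 9.30, 10.3 and 12.8 RPM unengaged, so its libraries overlapped. Its inhibition was 77.7% at 100, −1.37% at 1000 and 39.5% at 10000 ng/ml. The engaged libraries at 100 ng/ml were far apart, at 3.17 and 5.73 RPM, and leaving out 1 library gave 18.5% to 137%. Cdc42ep3, which binds the small GTPase CDC42, measured 13.5, 12.7 and 8.88 RPM engaged at 10000 ng/ml, against 17.6, 18.4 and 17.9 RPM unengaged. Its inhibition was 50.5% at 100, 48.2% at 1000 and 51.1% at 10000 ng/ml. Leaving out 1 library moved it to between 9.29% and 91.6% at 100 ng/ml, where the engaged libraries were at 7.01 and 9.65 RPM, and to between 32.4% and 64.1% at 1000 ng/ml. Its differences at 100 and 1000 ng/ml did not pass the test (limma adjusted p = 0.11 and 0.071). Inhibition at 10000 ng/ml was 23.6% for Plek, the phosphoprotein pleckstrin, 44.9% for Crip2, a LIM domain protein, and 59.7% for the pseudogene Gm2000. Crip2, Plek, Gm2000 and Tnfrsf12a, and likewise AY036118 below, were named after their values were seen.

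**Figure D2:**
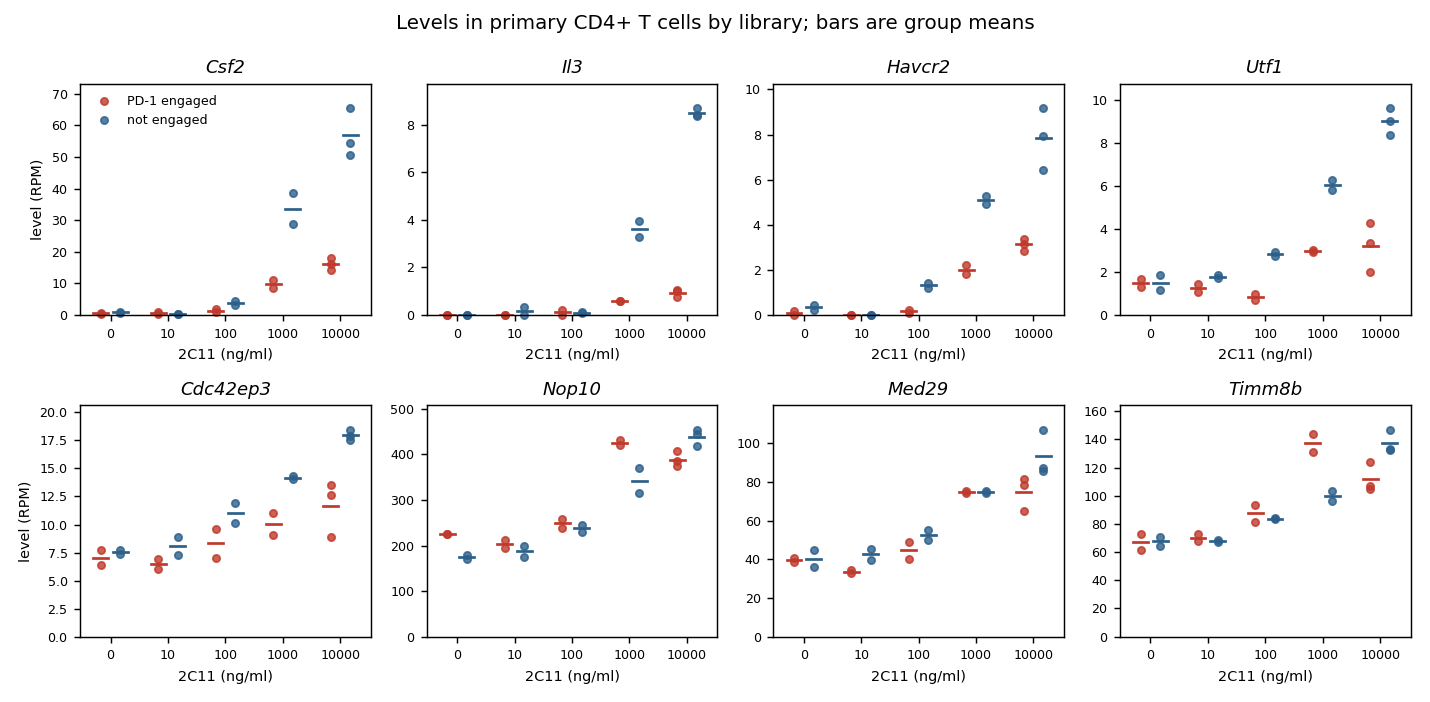
Levels in RPM (linear axes from 0) of 8 genes by 2C11 dose in ng/ml; each point is 1 library, each bar a group mean, PD-1-engaged libraries left of unengaged ones. Csf2, Il3, Havcr2 and Utf1 were lower with PD-1 engaged at 1000 and 10000 ng/ml, while the engaged libraries of Nop10 and Timm8b lay above the unengaged ones at 1000 ng/ml, where the choice of genes had favoured low unengaged libraries.

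Over the 14 genes with separated libraries, median inhibition was 33.2% at 100 ng/ml (8 genes whose unengaged rise reached 2 RPM), 25.1% at 1000 ng/ml (13 genes) and 42.2% at 10000 ng/ml (14 genes). Over the other induced genes it was 48.4% at 100 ng/ml (823 genes), 30.4% at 1000 ng/ml (905 genes) and 13.4% at 10000 ng/ml (905 genes). Over all 26 genes the medians were 34.9% (12 genes), 32.7% (18 genes) and 55.4% (26 genes). The medians at 1000 and 10000 ng/ml use the unengaged libraries that chose the genes, which were low at the one dose and high at the other, so nothing is read from their distance to the other induced genes. At 10000 ng/ml all 3 engaged libraries lay below all 3 unengaged ones in 11 of the 26 genes and in 10 of the 14, against 10.4% of all genes and 36.9% of the other induced genes. Those unengaged libraries were high by the way both sets were chosen, so nothing is read from these counts either. For genes chosen on the first-numbered libraries alone and measured without those, median inhibition at 10000 ng/ml was 16.2% (69 of the 79 genes with a sufficient rise, quartiles 2.57% and 46.3%). It was 11.8% for the genes induced in the same libraries that failed the condition on the share (867 genes, quartiles −1.53% and 22.7%). At 1000 ng/ml these medians were 14.3% (67 genes) and 32.0% (863 genes).

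**Figure D3:**
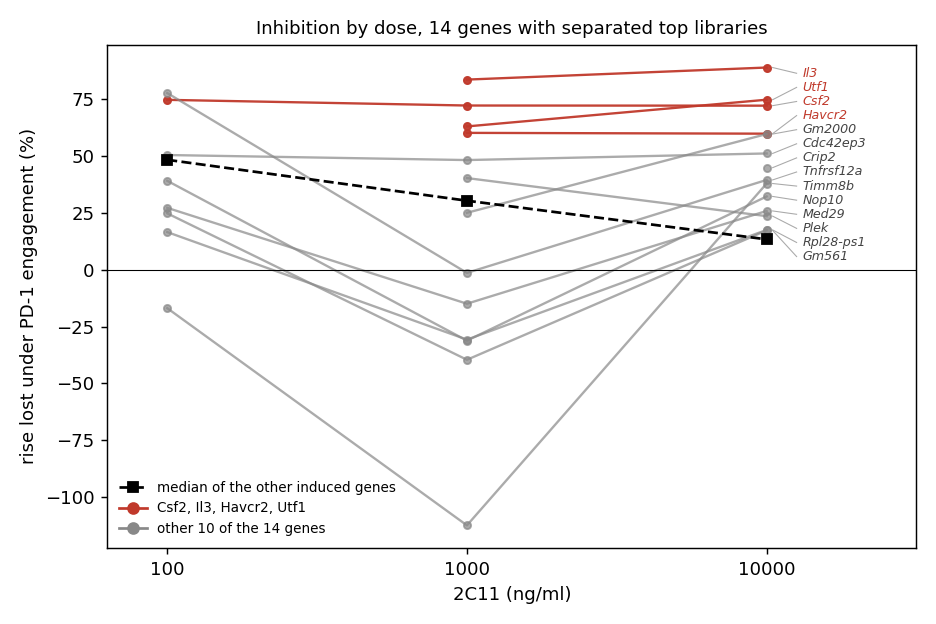
Percent of the unengaged rise over base that was missing with PD-1 engaged (linear axis) by 2C11 dose in ng/ml, for the 14 genes with separated libraries; black squares are the median of the other induced genes. Csf2, Il3, Havcr2 and Utf1 stayed between 59.8% and 88.9% at both upper doses, while 6 of the 13 genes shown at 1000 ng/ml lay below 0.

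Across all genes, the median log2 difference with PD-1 engaged was −0.29 at 100 ng/ml, −0.17 at 1000 ng/ml and 0.02 at 10000 ng/ml. It was −0.23 at 0 ng/ml and −0.13 at 10 ng/ml, so a shift was also present without 2C11. These are differences of log2(RPM + 1), as in all tests below. With limma and adjusted p-values over all genes tested, 7 of the 25 members tested were lower with PD-1 engaged at 10000 ng/ml, and 2.58% of all genes and 12.3% of the other induced genes were lower. The 7 were Il3 with −2.30 (SE 0.17), Csf2 with −1.75 (SE 0.19), Gm9234 with −1.52 (SE 0.33), Utf1 with −1.28 (SE 0.18), Havcr2 with −1.09 (SE 0.16), Cdc42ep3 with −0.60 (SE 0.15) and Timm8b with −0.29 (SE 0.08). No member was higher by limma, where 5.89% of all genes were, and 0 were higher at an unadjusted p under 0.05, by edgeR or by DESeq2. Calls of Cdc42ep3, Gm9234 and Timm8b were each lost without the third unengaged library at 10000 ng/ml, which left 4 calls. Cdc42ep3 was also lost without 2 other libraries and Timm8b without 4 others of that dose. Gm9234, a pseudogene, measured 15.1, 15.3 and 14.9 RPM engaged, against 51.7, 18.9 and 92.8 RPM unengaged. At 1000 ng/ml, 4 members were lower (Csf2, Il3, Havcr2 and Utf1), with a background of 19.4% of all genes and 38.8% of the other induced genes. Nop10 (0.32, SE 0.09) and Timm8b (0.45, SE 0.10) were higher at 1000 ng/ml, with 3.3% of all genes. Leaving out any 1 library of that dose left Utf1 short of the threshold, with limma adjusted p from 0.059 to 0.098. By DESeq2 Utf1 also fell short (adjusted p = 0.087). Nop10 was lost without 3 of the 4 libraries, each in turn, and Timm8b without 2 of them. Gm561 was higher too by limma after quantile normalization (adjusted p = 0.010), by edgeR (adjusted p = 0.012) and by DESeq2 (adjusted p = 0.012). The unengaged libraries of both doses chose the genes, and nothing is read from these counts.

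Some comparisons used libraries that played no part in the choice. Among genes chosen on the first-numbered libraries and tested without them at 10000 ng/ml, the differences were −2.31 for Il3 (SE 0.22, limma adjusted p = 9.8e-05), −1.78 for Csf2 (SE 0.23, limma adjusted p = 0.0030), −1.33 for Utf1 (SE 0.23, limma adjusted p = 0.012) and −1.08 for Havcr2 (SE 0.21, limma adjusted p = 0.025). Besides these 4, Il24, a cytokine gene outside the 26, was called lower, making 5 of the 79 (6.33%), against 3.55% of the 873 genes that failed the condition on the share. At 1000 ng/ml Csf2 (−1.90, limma adjusted p = 0.016), Il3 (−1.44, limma adjusted p = 0.022) and Havcr2 (−1.07, limma adjusted p = 0.048) were lower in the same setting, and Utf1 did not pass (−0.87, limma adjusted p = 0.097). With Il24, 4 of the 79 were lower at 1000 ng/ml (5.06%), against 13.5% of the 873 genes, so their share was under that background. In that setting Nop10 and Timm8b at 1000 ng/ml were at 0.21 (limma adjusted p = 0.23) and 0.40 (limma adjusted p = 0.098), so neither passed the test.

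At 100 ng/ml neither state took part in the choice. Csf2 (−1.05, SE 0.24, limma adjusted p = 0.0025), Havcr2 (−0.99, SE 0.20, limma adjusted p = 0.0012) and Utf1 (−1.08, SE 0.23, limma adjusted p = 0.0015) were lower with PD-1 engaged, 3 of 25 members. In the same comparison 37.3% of all genes and 49% of the other induced genes were lower, so the members' share was under the background. Without the second unengaged library at 100 ng/ml Csf2 had an adjusted p of 0.053 by limma. AY036118, a noncoding RNA, was the only member higher by limma (1.38, SE 0.52, limma adjusted p = 0.043), with 1.91% of all genes. It measured 23.3 and 3.92 RPM engaged and 4.15 and 2.44 RPM unengaged, and without its higher engaged library the adjusted p was 0.76 by limma. EdgeR and DESeq2 each called 3 members higher, AY036118, Nop10 and Timm8b. Adjusted p was 0.022 by edgeR and 0.0077 by DESeq2 for Nop10, and 0.011 and 0.0054 for Timm8b. By limma neither Nop10 (adjusted p = 0.59) nor Timm8b (0.67) passed. The share of all genes that edgeR and DESeq2 called is not given here. At 10 ng/ml no member was called by limma in either direction, with 1 lower and 2 higher at an unadjusted p under 0.05, 0 by edgeR and 0 by DESeq2, with 0.705% of all genes called lower and 0.0489% higher. At 0 ng/ml Nop10 was higher with PD-1 engaged, at 224 and 225 RPM against 180 and 169 RPM (0.36, SE 0.09, limma adjusted p = 0.018), a difference measured without 2C11 that was lost on leaving out any 1 of the 4 libraries (limma adjusted p from 0.061 to 0.15); 0.763% of all genes were higher and 13.6% were lower.

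B cell and antigen-presenting cell markers also differed with PD-1 engagement in the same libraries, at 100 ng/ml and above. Their summed level over 14 genes was 888 to 1272 RPM engaged and 593 to 953 RPM unengaged at 10000 ng/ml, 886 to 1112 RPM engaged and 562 to 724 RPM unengaged at 1000 ng/ml, and 1092 to 1243 RPM engaged and 732 to 886 RPM unengaged at 100 ng/ml. Of the 14, 4 were higher at 10000 ng/ml (Blnk, Cd22, H2-Aa and Ighm), 7 at 1000 ng/ml and 3 at 100 ng/ml, by limma, and 1 was lower at 100 ng/ml. The share of all genes called higher was 5.89%, 3.3% and 1.91% at these doses. Without 2C11 this sum was 647 to 1001 RPM engaged and 652 to 768 RPM unengaged. With 10 ng/ml it was 587 to 805 RPM engaged and 557 to 714 RPM unengaged, and 0 of these markers were called at either dose. T cell markers summed to 4268 to 5110 RPM engaged and 4953 to 5025 RPM unengaged at 10000 ng/ml, where 1 of 13 was lower. Their sum was 4995 to 5019 RPM engaged and 5324 to 5368 RPM unengaged at 1000 ng/ml, with 4 lower and 1, Cd3d, higher. It was 5065 to 5685 RPM engaged and 6202 to 6501 RPM unengaged at 100 ng/ml, with 7 of 13 lower and none higher by limma. The share of all genes called lower was 2.58% at 10000, 19.4% at 1000 and 37.3% at 100 ng/ml. Without 2C11 the T cell sum was 5181 to 5388 RPM engaged and 5929 to 6147 RPM unengaged. There 3 of 13 were lower, with 13.6% of all genes. With 10 ng/ml it was 5386 to 5545 RPM engaged and 5562 to 5775 RPM unengaged, with 0 called. The part of either kind of cell in the members' differences was not tested.

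Within the PD-1-engaged series, which the conditions did not use, all 14 genes with separated libraries were higher at 10000 ng/ml than at the engaged base, and the call of Gm2000 was lost without the second engaged library at 10000 ng/ml (limma adjusted p = 0.085). In all, 17 of 25 members were higher and 1, Gm9234, was lower, where 40.8% of all genes and 98.5% of the other induced genes were higher and 29.5% of all genes lower. The calls of Gm9234 (limma adjusted p up to 0.15) and of Kri1, among the 17 higher (up to 0.24), were each lost on leaving out any 1 of 6 libraries. Csf2 rose by 3.53 (SE 0.18, limma adjusted p = 2.6e-12), Havcr2 by 1.99 (SE 0.15, limma adjusted p = 8.5e-10), Il3 by 0.95 (SE 0.16, limma adjusted p = 3.1e-05) and Utf1 by 0.81 (SE 0.17, limma adjusted p = 0.00037). These genes were therefore still induced under PD-1 engagement, at lower levels. Likewise 16 members were higher at 1000 ng/ml than at the engaged base, with 32.5% of all genes and 96.5% of the other induced genes; the calls of Cdc42ep3, Crip2, Gm2000 and Plek there were each lost without at least 1 library. At 100 ng/ml 3 were higher (Csf2, Nop10 and Timm8b) and Gm7331 was lower, where 13.6% of all genes and 67.7% of the other induced genes were higher and 8.83% of all genes lower; without the second engaged library at 100 ng/ml 0 members were higher, and the call of Gm7331 was lost on leaving out any 1 of 4 libraries.

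The engaged series was also compared between its upper doses. Between 10000 and 1000 ng/ml engaged, 0 of 25 members passed the test in either direction by limma, with 4 higher and 1 lower at an unadjusted p under 0.05, where 3.47% of all genes and 3.54% of the other induced genes were higher and 0.529% of all genes lower. EdgeR and DESeq2 each called Csf2 higher and Timm8b lower. Among the 10 genes with separated libraries whose engaged rise allowed it, the share at 1000 ng/ml had a median of 97.9% engaged, and the 898 other induced genes had 82.9%. Csf2 and Havcr2 had nearly equal shares in both states, 58.6% engaged and 58.7% unengaged for Csf2, and 63.8% engaged and 64.4% unengaged for Havcr2, as did Cdc42ep3 with 66.6% engaged and 62.9% unengaged. Timm8b had 159% engaged and 46.6% unengaged, and Nop10 121% engaged and 62.7% unengaged. Every member's unengaged share at 1000 ng/ml was kept low by the choice of genes, which did not use the engaged libraries. Nothing is therefore read from how near the engaged and unengaged shares lie to each other, or how far apart. The share at 100 ng/ml unengaged had a median of 19.0% in the 14 genes and 35.5% in the other induced genes. The conditions did not use the libraries at 100 ng/ml. This share is divided by the rise from base to 10000 ng/ml, which did choose the members, so nothing is read from the distance.

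The gene lists place the members among their relatives. Of 28 measured cytokine genes, 19 met the level and fold conditions and 2, Csf2 and Il3, were members. At 10000 ng/ml 17 of the 28 were lower with PD-1 engaged and 0 higher, at 1000 ng/ml 19 and at 100 ng/ml 21. The list medians were −0.60, −0.84 and −0.80. For every list here the background was 2.58%, 19.4% and 37.3% of all genes lower at 10000, 1000 and 100 ng/ml. Among the other induced genes it was 12.3%, 38.8% and 49%, and 5.89% of all genes were higher at 10000 ng/ml. Il24, at 1.79 RPM engaged and 10.1 RPM unengaged at 10000 ng/ml, differed by −2.02 (limma adjusted p = 0.00014) with a share at 1000 ng/ml of 77.6%. Ifng differed by −1.90 (limma adjusted p = 9.2e-06) with a share of 79.9%, and Il13 by −1.60 (limma adjusted p = 0.00063) with a share of 77.3%. Il10 differed by −0.87 (limma adjusted p = 0.0040) with a share of 88.4%. Large differences thus occurred in single cytokine genes on both sides of the 65% threshold. The unengaged libraries at 10000 ng/ml chose Csf2 and Il3, so nothing is read from this about the threshold. Of 11 measured inhibitory receptors and ligands, Havcr2 was the only member; 3 were lower at 10000 ng/ml (Havcr2, Cd274 and Cd160), 3 at 1000 ng/ml and 6 at 100 ng/ml. Cd274, which encodes PD-L1, differed by −0.30 (limma adjusted p = 0.024) at 10000 ng/ml. Of 28 measured ribosome biogenesis genes, 27 met the level and fold conditions and none was a member. In that list 1 was lower at 10000, 18 at 1000 and 20 at 100 ng/ml.

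In the hybridoma, 23 of the 26 genes were listed, and Crip2, Havcr2 and Utf1 were not. Without PD-1 engagement 8 of the 23 were higher at 10000 nM pOVA than at base, here the mean of 0 and 1 nM, with 10.6% of all genes and 37.8% of the other induced genes higher. They were Il3, Gm16631, Tnfrsf12a, Csf2, Eif2s2, Timm8b, Gm561 and Nop10. With the replicate number as a block 6 were higher, and Gm561 (limma adjusted p = 0.073) and Timm8b (limma adjusted p = 0.067) did not pass. Calls of Eif2s2, Timm8b, Gm561 and Nop10 were each lost on leaving out any 1 of 3 or 4 libraries. Il3 measured 4.29, 3.50 and 3.85 RPM at 10000 nM, 1.74 and 2.09 RPM at 1000 nM, 0.12 and 0.48 RPM at 100 nM, and at most 0.07 RPM below. It therefore kept climbing at the highest dose of a different stimulus, though the step between 1000 and 10000 nM did not pass over all genes (0.74, SE 0.20, limma adjusted p = 0.41), where 0% of all genes passed. Csf2 already measured 6.86 and 5.89 RPM at 0 nM and reached 11.6, 11.5 and 13.99 RPM at 10000 nM (0.77 over base, SE 0.14, limma adjusted p = 0.00032).

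With PD-1 engaged at 10000 nM, Il3 measured 0.12, 0.41 and 0.38 RPM, against 4.29, 3.50 and 3.85 RPM unengaged (−1.91, SE 0.18, limma adjusted p = 1.0e-05). It was the only member called lower, where 0.337% of all genes were lower and 0.0693% higher. At 100 nM 0 of 23 passed by limma, edgeR or DESeq2, with 0.485% of all genes lower and 0.00991% higher, and at an unadjusted p under 0.05 limma had 0 lower and 0 higher. Hist1h2ap measured 5479, 2.99 and 437 RPM engaged and 1.40, 2.36 and 2.70 RPM unengaged; it did not pass by limma (6.10, SE 1.43, adjusted p = 0.079) and did with the replicate number as a block (limma adjusted p = 0.015), on 2 of 3 engaged libraries. It also passed by edgeR, by DESeq2 and, by limma, without the engaged library at 2.99 RPM (adjusted p = 2.2e-07). Csf2 measured 10.3, 9.34 and 9.03 RPM engaged and 11.6, 11.5 and 13.99 RPM unengaged, and did not pass (−0.33, SE 0.15, limma adjusted p = 1). Tnfrsf12a measured 15.5, 17.2 and 16.1 RPM engaged, above all 3 unengaged libraries with 12.3, 13.8 and 14.4 RPM, and did not pass (0.25, SE 0.14, limma adjusted p = 1). Neither gene passed with the replicate number as a block (limma adjusted p = 0.24 for Csf2 and 0.26 for Tnfrsf12a). A joint fit of both systems tested the PD-1 difference in CD4+ T cells minus that in the hybridoma at the top dose. It was −0.39 for Il3 (SE 0.22, limma adjusted p = 0.54), with an effect of the same sign in both systems. For Csf2 it was −1.41 (SE 0.25, limma adjusted p = 0.0036), and 0.834% of all genes in both tables passed. The CD4+ side of that difference used the unengaged libraries that chose Csf2. Without the first-numbered unengaged CD4+ libraries, for genes chosen on those, it was −1.44 (SE 0.27, limma adjusted p = 0.015), with 0.193% of all genes past the threshold.

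**Figure D4:**
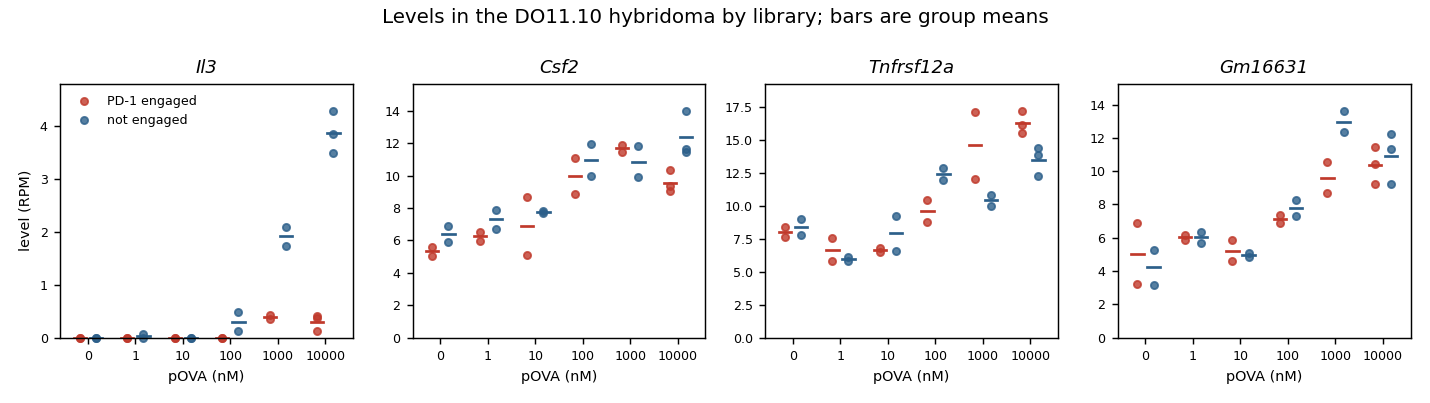
Levels in RPM (linear axes from 0) of 4 genes in the DO11.10 hybridoma by pOVA dose in nM; points are libraries, bars group means, PD-1-engaged libraries left of unengaged ones. Il3 was between 3.50 and 4.29 RPM unengaged at 10000 nM and at most 0.43 RPM in every engaged library.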

How the data were processed

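CAGE tag clusters were analysed as deposited, in 2 tables, primary CD4+ T cells and hybridoma. The values deposited by the authors were read as RPM from their equal steps and column sums; the sources used here do not describe the scaling, and depth was taken from the steps. The submitters' processing notes name BWA 0.7.12, HISAT2 2.0.5 and mm9, with no role given. Clusters were summed per gene symbol, leaving out those with no symbol or several. Values were whole multiples of 1 tag (tolerance 0.1 tag) in 100% of cases, so whole tags were recovered. Deposited clusters hold only those reaching about 3.00 RPM in some library.

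Tests used limma 3.58.1 (R 4.3.3) on log2(RPM + 1), for genes reaching 1 RPM in 2 or more libraries, with 1 mean per group, two-sided, Benjamini-Hochberg adjustment over all genes tested in a table, threshold 0.05; fold changes on this scale understate those of low genes. Gm11353 failed the filter in CD4+ cells. The members and lists were chosen with earlier results of these data known. Alternatives were other pseudocounts, filters, quantile normalization, edgeR 4.0.16 and DESeq2 1.42.0 on recovered tags, replicate blocks, left-out libraries and other thresholds of the conditions. Named genes were taken from those with the largest rise, level or PD-1 difference, up to 4 per gene list, and those beside the threshold. Gbp8 and Ly6a also met this and are not described. Inhibition was computed where the unengaged rise reached 2 RPM. The script was tested on simulated data. Promoters came from RefSeq (GRCm38.p6), with no coordinates converted. Replicate numbers were read as pairing the hybridoma libraries, where deviations from group means correlated in every same-numbered pair (r 0.256 to 0.759). The CD4+ libraries were not read as paired (0.0129 to 0.255), though the ranges nearly meet. Main tests in both systems left pairs out, and replicate blocks were run as alternatives.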

Additional observations from a re-analysis of the deposited data

Results flagged for a closer look

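The effect of PD-1 engagement on Csf2 at the top dose differed between the systems by a test of the difference itself. Csf2 was −1.75 in primary CD4+ T cells at 10000 ng/ml 2C11 and −0.33 in the hybridoma at 10000 nM pOVA, a difference of −1.41 on the log2(RPM + 1) scale (SE 0.25, limma adjusted p = 0.0036 over all 9350 genes in both tables, of which 0.834% passed). The unengaged CD4+ libraries at 10000 ng/ml also chose Csf2, so this value is not independent of the choice. Without the first-numbered unengaged CD4+ libraries, which alone also choose Csf2, the difference was −1.44 (SE 0.27, limma adjusted p = 0.015, 0.193% of all genes). Stimulus, cell and starting level of Csf2 differ between the systems and cannot be told apart. Both joint fits were chosen after seeing the data.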

How the results depend on the processing

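The calls of Csf2, Il3, Havcr2 and Utf1 at 10000 ng/ml held under all 13 alternatives run for them. Stricter conditions gave other counts. With a share of at most 50% (13 genes), 3 were lower with PD-1 engaged at 10000, 1 at 1000 and 0 at 100 ng/ml. In the engaged series 5, 4 and 1 were then higher than base at 10000, 1000 and 100 ng/ml, and median inhibition was 83.0% at 10000 and 83.6% at 1000 ng/ml. With a fold of at least 3 (13 genes) the engaged series gave 6, 5 and 1, and the medians were 78.4% and 67.6%. Median inhibition at 1000 ng/ml was 8.05% with the unengaged base for both states and −30.9% where the unengaged rise had to reach 5 RPM (8 genes); at 100 ng/ml it was −19.0% after quantile normalization. Quantile normalization also gave 1 member higher at 100 ng/ml in the engaged series and 5 in the hybridoma dose comparison. Between engaged 10000 and 1000 ng/ml, 1 member was higher with the replicate block, 1 by edgeR and 1 by DESeq2. With the replicate block 8 members were lower at 10000 ng/ml, and CD4+ replicates share only a number. EdgeR and DESeq2 each gave 9 there. Med29 was added in each of these settings, Hist1h2ap by edgeR and Gm7331 by DESeq2. The cause of these shifts was not tested, beyond the smaller sets.

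Leaving out 1 library gave 4 to 8 members lower at 10000, 3 at 1000 and 2 to 6 at 100 ng/ml (6 without the second engaged library at 100 ng/ml). In the engaged series it gave 15 to 17, 13 to 16 and 0 to 6 higher at 10000, 1000 and 100 ng/ml, and 0 between the upper doses. At 100 ng/ml these were 1 without the first engaged library at 0 ng/ml, 6 without the first and 0 without the second at 100 ng/ml. In the hybridoma it gave 4 to 9 in the dose comparison (4 without the first library at 1 nM, 5 without the third at 10000 nM), 1 lower with PD-1 engaged at 10000 nM, 0 lower at 100 nM and 0 higher between 10000 and 1000 nM. Without the second unengaged library at 1000 nM Gm14934 was lower between those doses, as by DESeq2, and without the second engaged library at 10000 nM Hist1h2ap was higher with PD-1 engaged. Median inhibition ranged over 45.7% to 64.0% at 10000, 27.4% to 42.9% at 1000 and 37.9% to 89.5% at 100 ng/ml, 89.5% without the second engaged library at 100 ng/ml. Levels near 1 RPM rest on few tags, and groups of 2 libraries limit every comparison below the top dose.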
